A study of Mus musculus with 15 samples.

Results

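The nuclear-encoded subunits of the respiratory chain were examined in mammary tissue of female nu/nu nude mice after 16 weeks of low-dose BDE-47. Genes were taken by name as subunits of complex I (names beginning with Ndufa, Ndufb, Ndufc, Ndufs or Ndufv and a number), complex II (Sdha to Sdhd), complex III (names beginning with Uqcr) and complex IV (names beginning with Cox4 to Cox8), leaving out the 3 muscle-type and brown fat-type isoforms Cox6a2, Cox7a1 and Cox8b. This rule gave 66 genes of 52526 in each library: 37 of complex I, 4 of complex II, 10 of complex III and 15 of complex IV. BDE-47 is a congener of the polybrominated diphenyl ether (PBDE) flame retardants. It was delivered to 7 adult mice in PEG300 with 1% DMSO by subcutaneous osmotic mini-pumps, and 8 mice received pumps with PEG300 and 1% DMSO alone (vehicle). Both groups carried the nude Foxn1 mutation, which leaves the animals without mature T cells, and 1 library of tagged transcript 3′ ends (QuantSeq) was made from the left 4th mammary tissue of each mouse. Some of the animals carried a xenograft in the region, which the sample labels do not assign to single mice and which was therefore not used here.

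The respiratory chain is built into the inner membrane of the mitochondrion. Complex I (NADH dehydrogenase) and complex II (succinate dehydrogenase) pass electrons to ubiquinone, complex III (cytochrome bc1) passes them on to cytochrome c, and complex IV (cytochrome c oxidase) delivers them to oxygen. Complexes I, III and IV pump protons, and the gradient drives ATP synthase, often called complex V. Most subunits are nuclear-encoded and imported, while the mitochondrial DNA encodes a few core subunits of every complex but complex II. In mammary tissue these genes are transcribed in all cell types, adipocytes, epithelium and stroma alike, and skeletal muscle, which lies under the skin near the gland, is especially rich in them.

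Values were log2(CPM), where CPM is the number of reads of a gene per 1 M mapped reads, and any gene under 1 CPM was listed at 0, here called the floor. Depth was 10.1 to 19.6 M mapped reads per mouse. Because 3′ tagging gives 1 read per transcript, the levels of different genes can be compared without a correction for transcript length, although priming can still differ between genes. In 3 libraries the markers of another tissue stood apart. BDE-47 replicate 6 held skeletal muscle transcripts, with a sum of 108909 CPM over 10 muscle markers (Cox6a2 among them) against 47.7 to 220 CPM in the other 14 mice. Vehicle replicates 6 and 8 had all 8 B cell markers above the floor, with sums of 676 and 775 CPM against 0 to 9.87 CPM in the others. The same 2 libraries were low in the 8 white adipocyte markers (392 and 992 CPM, against 4039 to 24430 CPM elsewhere). For the subunits, the comparison of the groups is therefore given with and without these 3 mice. In the whole tissue, fewer cells of a type cannot be told apart from less RNA per cell.

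Most subunits were detected in every mouse. Of the 66 genes, 54 were above the floor in all 15 mice (31 of complex I, all 4 of complex II, 8 of complex III and 11 of complex IV), whereas 4.91% of all genes were. That share is over all 52526 genes, of which 36225 were listed at 0 in every mouse. The mean level of the 54 over the mice ranged from 4.51 for Ndufv1 to 8.63 for Cox6b1 on the log2(CPM) scale, with a median of 6.80. That median compares with 5.61 over all 2577 genes above the floor in every mouse, of which 81.3% had a lower mean than the median subunit. Together the 66 genes took 0.482% to 1.07% of the reads of a vehicle mouse (median 0.866%) and 0.604% to 1.63% in the BDE-47 mice (median 0.714%). The lowest share was that of vehicle replicate 8 and the highest that of BDE-47 replicate 6, which are libraries with markers of another tissue.

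**Figure D1:**
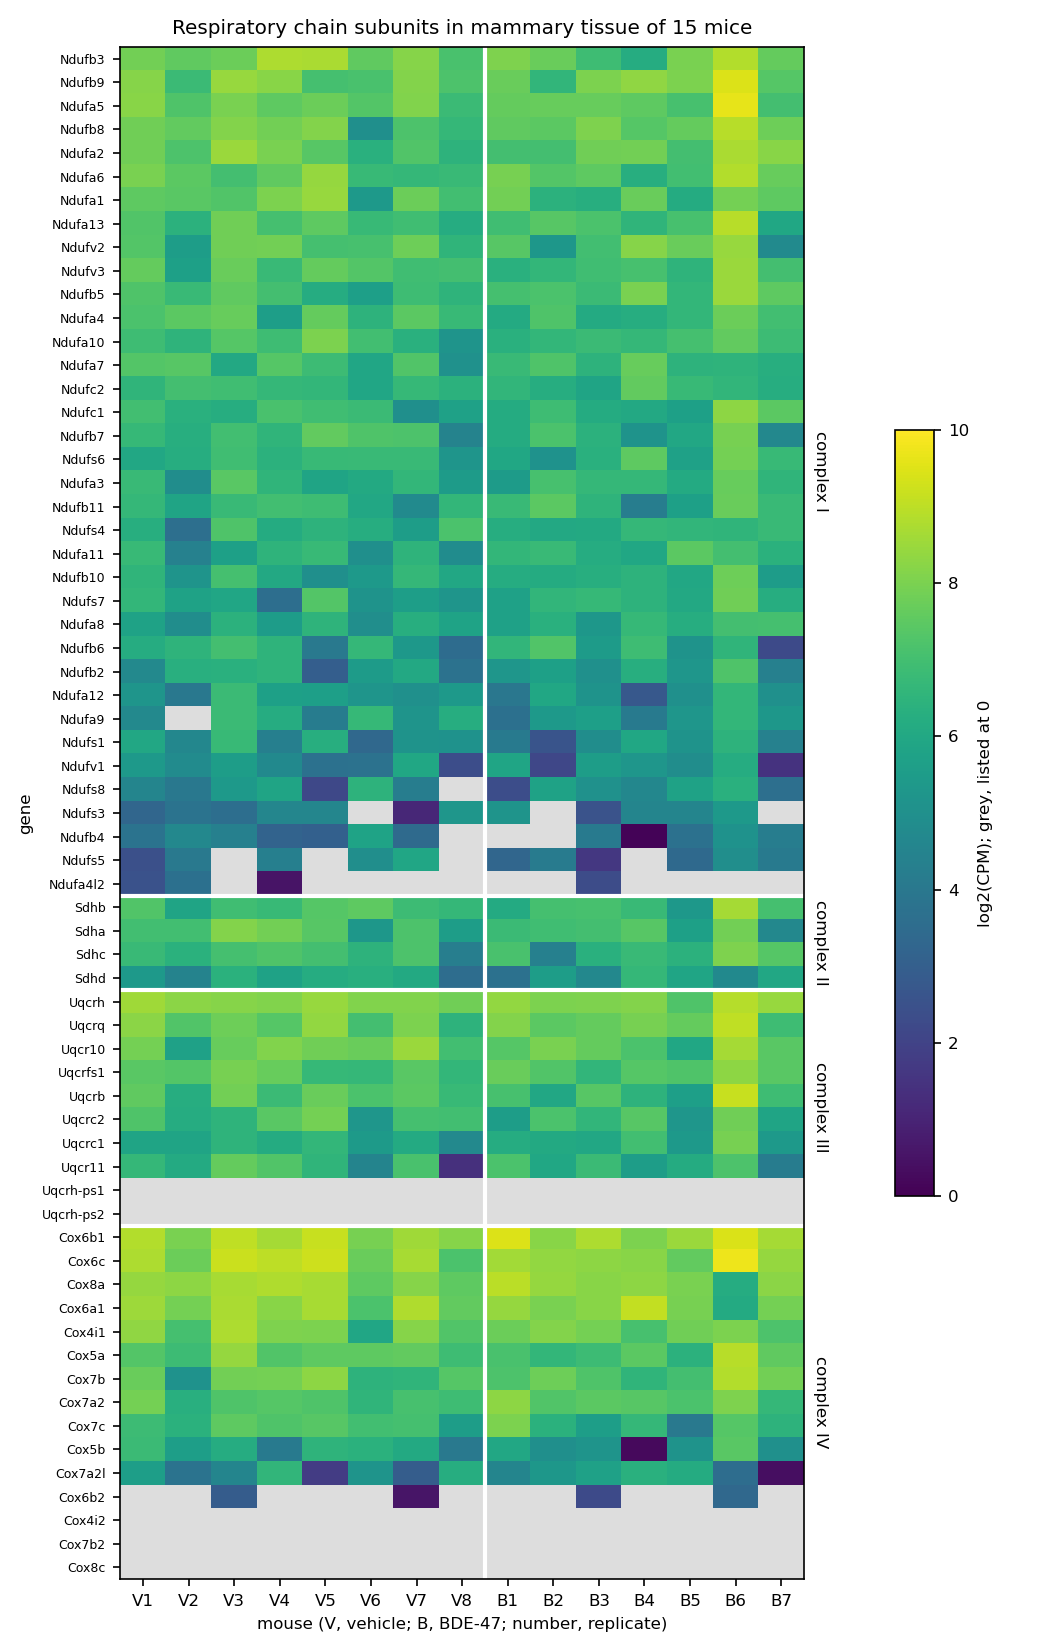
Heat map of log2(CPM) for the subunit genes reported by name (rows, ordered by mean level within each complex) in the 15 mice (columns; V, vehicle; B, BDE-47; the number is the replicate), with genes listed at 0 in grey. The rows of 5 genes are grey throughout, and the column of BDE-47 replicate 6 holds the highest value in most rows without grey.

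The levels differed between the complexes and within them. In complex IV, the mean over mice was highest for Cox6b1 (8.63 ± 0.50, SD, n = 15) and Cox6c (8.45 ± 0.70), which encode small subunits, followed by Cox8a (8.16), Cox6a1 (8.09), Cox4i1 (7.71), Cox5a (7.36), Cox7b (7.32), Cox7a2 (7.27) and Cox7c (6.64). Cox5b, which carries the zinc site of the enzyme, averaged 5.32, and Cox7a2l, whose product joins complexes III and IV in supercomplexes, averaged 4.58. From Cox6b1 to Cox6a1, neighbours in this order differed by less than their SDs of 0.50 to 0.74. In complex III, Uqcrh, the acidic hinge protein beside cytochrome c1, averaged 8.19 and Uqcrq averaged 7.69. These were followed by Uqcr10 (7.51), the Rieske iron-sulfur protein Uqcrfs1 (7.32), Uqcrb (7.08), the 2 core proteins Uqcrc2 (6.68) and Uqcrc1 (6.08), and Uqcr11 (6.02). In complex II, the iron-sulfur subunit Sdhb (6.88), the flavoprotein Sdha (6.79) and the membrane anchor Sdhc (6.59) lay within 1 SD of each other, and the second anchor Sdhd averaged 5.43.

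In complex I the means ran from 7.79 for Ndufb3 and 7.78 for Ndufb9, both accessory subunits of the membrane arm, to 4.51 for Ndufv1, the flavin-binding subunit that takes the electrons from NADH. Between them lay Ndufa5 (7.68), Ndufb8 (7.55), Ndufa2 (7.51), Ndufa6 (7.41), Ndufa1 (7.25), Ndufa13 (7.06), Ndufv3 (7.05), Ndufb5 (7.03), Ndufa4 (6.88), Ndufa10 (6.81), Ndufa7 (6.71), Ndufc2 (6.57), Ndufc1 (6.53), Ndufb7 (6.43), Ndufs6 (6.43), Ndufa3 (6.39), Ndufb11 (6.38), Ndufs4 (6.24), Ndufa11 (6.19), Ndufb10 (6.15), Ndufa8 (6.03), Ndufb6 (5.72), Ndufb2 (5.42) and Ndufa12 (5.16). The 7 nuclear core subunits, which carry the flavin and the iron-sulfur clusters and have bacterial counterparts, were lower than the 30 accessory ones as a group. Their median was below that of the accessory genes in 15 of 15 mice, with core medians of 4.40 to 6.46 and accessory medians of 6.11 to 7.72. Among the core genes, Ndufv2 (7.06), Ndufs7 (6.05), Ndufs1 (5.01) and Ndufv1 (4.51) were above the floor in every mouse. Ndufs3 was listed at 0 in 3 mice and Ndufs8 in 1. Mitochondrial genes that every cell uses, such as mt-Co2, were listed at 0 in all 15 mice, so a 0 may stand for a gene that was not counted as well as for a low level.

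The 12 remaining genes touched the floor. Cox4i2 (the lung-type, hypoxia-responsive partner of Cox4i1), Cox7b2, Cox8c (a testis isoform) and the pseudogenes Uqcrh-ps1 and Uqcrh-ps2 were listed at 0 in all 15 mice. Cox6b2, a testis isoform, was above the floor in 4 mice, with values of 2.91 and 0.55 in vehicle replicates 3 and 7 and of 2.24 and 3.37 in BDE-47 replicates 3 and 6. Ndufa4l2, a hypoxia-induced relative of Ndufa4, was above the floor in 4 mice, at 2.52, 3.70 and 0.52 in vehicle replicates 1, 2 and 4 and at 2.33 in BDE-47 replicate 3. In contrast, the ubiquitous partners Cox4i1, Cox6b1, Cox8a and Ndufa4 were above the floor in every mouse, so within each of these pairs 1 gene carried nearly all reads. Ndufa9 and Ndufs8 reached the floor in 1 mouse each, Ndufb4 and Ndufs3 in 3 and Ndufs5 in 4. In the mice above the floor alone, the median reads were 580 (Ndufa9), 474 (Ndufs8), 217 (Ndufb4), 337 (Ndufs3) and 247 (Ndufs5). How the authors treated reads that match several copies of a gene is not given in the sources used here, so the values of genes with processed copies, such as Uqcrh, are uncertain to that extent.

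The spread between mice was far above counting error. Over the 54 genes above the floor in all mice, the SD of log2(CPM) across the 15 mice ran from 0.36 for Uqcrh to 1.80 for Cox7a2l, with a median of 0.77, while all 2577 genes detected in every mouse had a median of 1.00. Counting error alone would give the subunits an SD of 0.02 to 0.07. Cox7a2l was a wide case, with 1.77, 4.88 and 6.57 as the lowest, median and highest of the vehicle mice and 0.36, 5.28 and 6.35 for BDE-47. Cox5b was at 0.25 in BDE-47 replicate 4, just above the floor, and at 4.03 or more in the other 14 mice. Uqcr11 was at 1.37 in vehicle replicate 8 and at 4.21 or more elsewhere. No mouse had a second library, so the animal and the preparation of its library cannot be told apart as sources of such values.

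**Figure D2:**
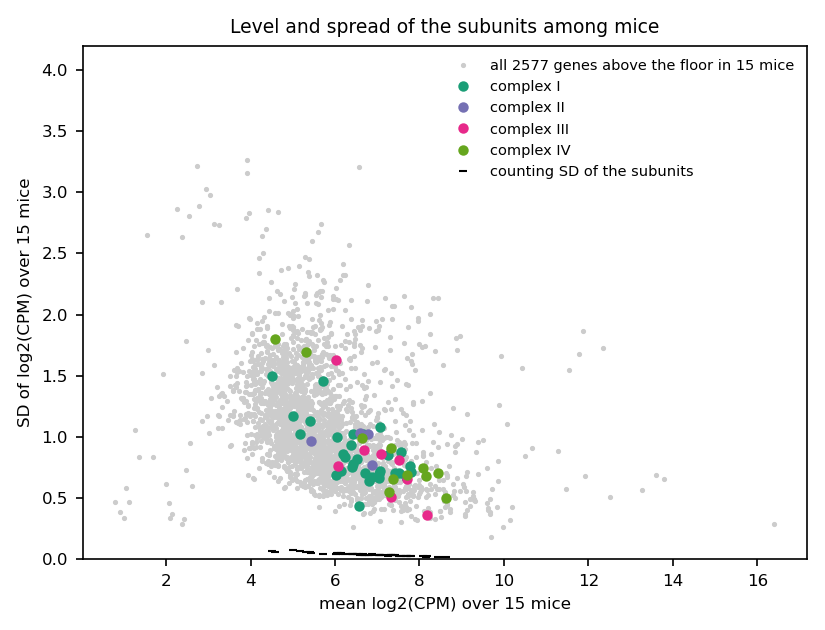
Mean of log2(CPM) over the 15 mice (horizontal axis) against its SD (vertical axis) for the 54 subunit genes above the floor in every mouse, coloured by complex, and for all 2577 such genes in grey; black dashes give the SD that counting alone would produce for the subunits. The subunits lie to the right of most grey points, with SDs from 0.36 to 1.80, above the dashes at 0.02 to 0.07.

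Per mouse, the mean of the 54 genes ran from 5.97 to 7.33 in the vehicle group (6.74 ± 0.48, SD, n = 8) and from 6.39 to 7.83 in the BDE-47 group (6.80 ± 0.48, n = 7). The ranges overlapped, and the extreme values belonged to vehicle replicate 8 and BDE-47 replicate 6. By complex, vehicle and BDE-47 mice averaged 6.50 ± 0.46 and 6.64 ± 0.54 in complex I, 6.48 ± 0.70 and 6.36 ± 0.56 in complex II, 7.05 ± 0.60 and 7.10 ± 0.66 in complex III, and 7.28 ± 0.46 and 7.18 ± 0.37 in complex IV. No complex differed between the groups by more than the SD between mice.

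**Figure D3:**
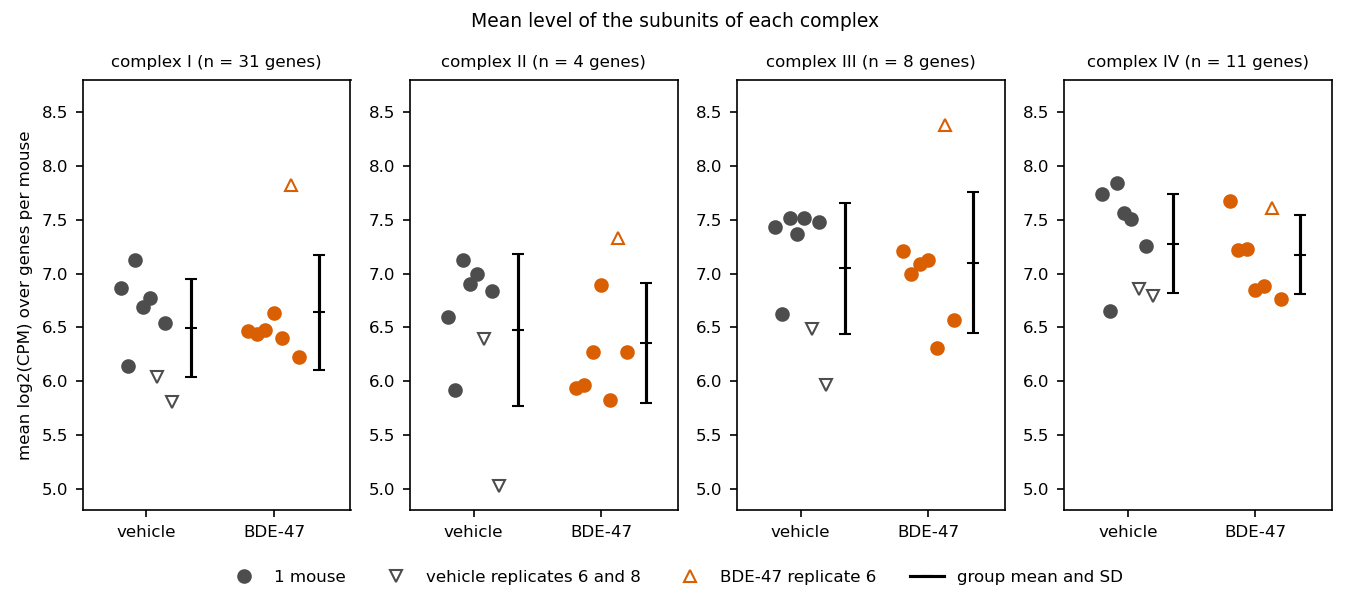
Mean log2(CPM) over the genes above the floor in all mice, for complexes I to IV, with 1 point per mouse and the mean and SD of each group in black. BDE-47 replicate 6 (open upward triangle) is the highest mouse in complexes I, II and III but not in complex IV. Vehicle replicates 6 and 8 (open downward triangles) lie low in their group. Vehicle replicate 2 (a filled circle) also lies low, at 5.92 in complex II and 6.65 in complex IV.

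The library with skeletal muscle transcripts, BDE-47 replicate 6, carried the highest subunit levels of the series. Of the 54 genes, 33 had their highest value there (21 of complex I, 2 of complex II, 6 of complex III and 4 of complex IV), against 8.15% of all genes above the floor in every mouse. In the same library, 48 of the 54 were above the median of the other 14 mice, as were 28.4% of all such genes. The median subunit was 1.25 higher there on the log2 scale (2.38-fold), while the same median over all genes detected in every mouse was -0.75. Among the wide gaps were those of Uqcrb (9.17, 2.17 above the median of the other mice), Cox5b (7.45, 2.06 above) and Ndufa5 (9.64, 2.05 above), which sit in complexes III, IV and I. These values describe 1 mouse and carry no test.

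In that mouse 6 of the 54 genes were below the median of the others, and the widest gaps of this kind were in complex IV. Cox6a1 was at 6.12 in BDE-47 replicate 6, the lowest of the 15, against 7.18 to 8.81 in the vehicle mice and 7.90 to 9.08 in the other BDE-47 mice. Cox8a was at 6.18, also the lowest of the 15, against 7.52 to 8.79 in the vehicle mice and 7.97 to 8.95 in the other BDE-47 mice. Both encode the ubiquitous form of a subunit that heart and skeletal muscle replace with a tissue form. The tissue form of the first, Cox6a2, was at 11.30 in BDE-47 replicate 6 and between 0 and 1.48 in the other 14 mice. That of the second, Cox8b, which brown fat also makes, was at 8.66 there and between 0 and 6.26 elsewhere. The third pair differed from these. Cox7a1, the muscle and brown fat form, was at 8.89 in BDE-47 replicate 6 and between 0 and 5.49 in the others, and its ubiquitous partner Cox7a2 was at 8.05, above the 6.32 to 7.93 of the vehicle mice and below the 8.31 of BDE-47 replicate 1. Cox7a2l, at 3.57, lay at -1.67 from the median of the other mice, within their range of 0.36 to 6.57. Sdhd, at 4.74, lay at -1.09, in contrast to Sdhb (1.75 above), Sdhc (1.28 above) and Sdha (0.91 above). Ndufa7 (-0.31) and Ndufc2 (-0.03) were the remaining genes below it.

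**Figure D4:**
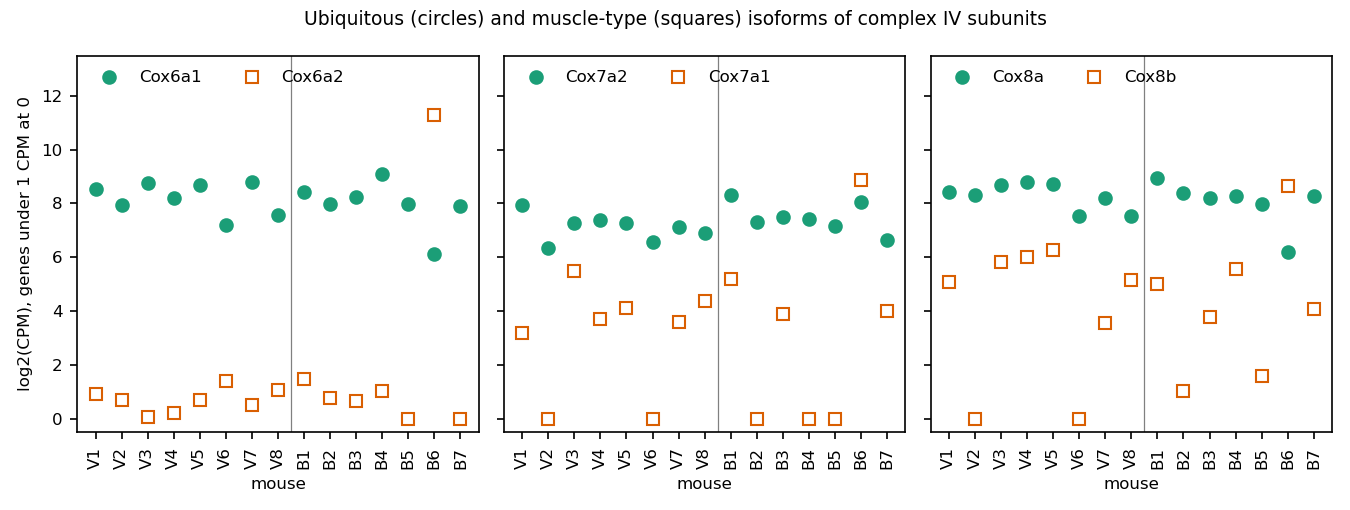
Log2(CPM) in each mouse (horizontal axis; V, vehicle; B, BDE-47; the grey line parts the groups) of the ubiquitous isoforms Cox6a1, Cox7a2 and Cox8a (filled circles) and of the isoforms Cox6a2, Cox7a1 and Cox8b (open squares). In BDE-47 replicate 6 the squares lie at 11.30, 8.89 and 8.66, above the circles in all 3 panels, whereas in every other mouse they lie below them.

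The upstream sequences of Cox6a1, Cox8a and Cox8b are shown because the forms of a subunit took opposite positions in this library. The 250 bases before the transcription start were taken from RefSeq on GRCm38.p6 (the labels name GRCm38) and are written 5′ to 3′ on the strand of the gene. Capitals mark matches, on either strand, to CCGGAAG (bound by ETS factors such as GABP), GCGCATGC (the core of the NRF1 site), AAGATGGC (YY1) or CAGCTG (an E-box that muscle regulators can bind). The NRF1 core matches overlap on opposite strands in Cox6a1 and are written as 1 run. Cox6a1 lies on chromosome 5 from 115345652 to 115348958, Cox8a on chromosome 19 from 7215158 to 7217616, and the windows are chr5:115348959-115349208 (minus strand) for Cox6a1, chr19:7217617-7217866 (minus strand) for Cox8a and chr7:140900447-140900696 (minus strand) for Cox8b.
Cox6a1: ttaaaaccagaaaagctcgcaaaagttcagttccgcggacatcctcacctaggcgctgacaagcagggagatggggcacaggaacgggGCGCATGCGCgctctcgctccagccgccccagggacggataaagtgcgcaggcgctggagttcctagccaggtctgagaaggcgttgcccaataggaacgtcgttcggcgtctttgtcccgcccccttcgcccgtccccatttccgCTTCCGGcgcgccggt
Cox8a: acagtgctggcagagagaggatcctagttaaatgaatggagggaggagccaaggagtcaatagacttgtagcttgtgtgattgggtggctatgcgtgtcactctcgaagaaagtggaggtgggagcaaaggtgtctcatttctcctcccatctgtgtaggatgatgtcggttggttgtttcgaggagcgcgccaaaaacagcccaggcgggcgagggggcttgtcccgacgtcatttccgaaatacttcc
Cox8b: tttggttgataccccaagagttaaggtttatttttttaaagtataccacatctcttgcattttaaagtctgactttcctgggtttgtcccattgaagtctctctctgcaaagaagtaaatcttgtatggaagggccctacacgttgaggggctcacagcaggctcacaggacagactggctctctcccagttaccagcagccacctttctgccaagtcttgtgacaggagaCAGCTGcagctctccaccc
Cox6a1 held an ETS match and the paired NRF1 core, Cox8a held none of the 4 motifs, and Cox8b held 1 E-box match near its start. Of the 66 genes, 51 had a promoter in the table, 53 windows in all. The ETS letters occurred in 8 of the 53 windows (15.1%) and in 6.91% of all 32851 promoters, in Cox6a1, Cox6b1, Ndufb6, Ndufb7, Ndufs3, Sdhd, Uqcr11 and Uqcrh. The NRF1 core occurred in 5 windows (9.43%, against 2.26%), those of Cox6a1, Ndufa11, Ndufa6, Ndufa8 and Sdhb. The E-box letters occurred in 4 (7.55%, against 13.0%) and the YY1 core in 0 (against 1.56%). These are counts of letters in a fixed window and not of bound sites.

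Between BDE-47 and vehicle, no subunit passed the test for a difference. Of the 66 genes, 59 were tested, all but the 5 at the floor and the sparsely detected Cox6b2 and Ndufa4l2. By limma with Benjamini-Hochberg adjustment over 9506 genes, 0 of the 59 had an adjusted p under 0.05, as had 0% of all genes tested, and the lowest adjusted p was 0.982. At an unadjusted p under 0.05, 0 were higher with BDE-47 (1.94% of all genes) and 0 were lower (2.71% of all genes), the lowest being 0.0949 for Ndufa11. Over all genes these were 184 higher and 258 lower, and 236 higher and 200 lower with median-of-ratios scaling, which left both counts of subunits at 0. The log2 difference was above 0 for 34 of the 59 (57.6%, against 49.1% of all genes) with a median of 0.08, where all genes had -0.02. The median was 0.14 in complex I (24 of 36 above 0), -0.12 in complex II (1 of 4), 0.08 in complex III (4 of 8) and -0.02 in complex IV (5 of 11). Past 2-fold, 0 were higher (13% of all genes) and 1, Ndufb4, was lower (13.2% of all genes). In each of the 59 subunits the groups overlapped, which was not counted over all genes.

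The differences were also bounded more closely than those of most genes. The 95% interval of the log2 difference lay within 2-fold in either direction for 15 of the 59 (25.4%), against 2.49% of all genes. The median half-width of the interval was 0.94 for the subunits and 1.92 for all genes. The 2 sets differ in level: 54 of the 59 were above the floor in every mouse, against 2577 of the 9506 genes tested. Among genes above the floor in every mouse, the median SD over the 15 mice was 0.77 for the subunits and 1.00 for all genes. For Uqcrh the difference was -0.03 (95% interval -0.68 to 0.62), and for Cox6b1 it was 0.17 (-0.48 to 0.82). For Cox4i1 it was 0.01 (-0.77 to 0.79), for Cox6c 0.02 (-0.70 to 0.75), for Ndufb9 0.29 (-0.50 to 1.09), for Uqcrq 0.26 (-0.50 to 1.03) and for Uqcrfs1 0.19 (-0.57 to 0.95). A smaller change in any of these genes was not detectable with 15 mice.

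Ndufs7 and Ndufa11 had the largest positive differences in complex I. Ndufs7, which holds the last iron-sulfur cluster before ubiquinone (gene ID 75406, chromosome 10 from 80249105 to 80256794), was at 3.60, 5.68 and 7.33 as the lowest, median and highest of the vehicle mice and at 5.73, 6.48 and 7.84 with BDE-47. The groups overlapped, and the difference of 0.87 ± 0.52 (SE) had an unadjusted p of 0.0993 by limma and an exact permutation p of 0.0918. Ndufa11, an accessory subunit of the membrane arm (gene ID 69875, chromosome 17 from 56717762 to 56724248), was at 4.41, 6.09 and 6.73 in the vehicle mice and at 5.94, 6.61 and 7.46 with BDE-47. All 7 BDE-47 mice were above vehicle replicates 2, 3, 6 and 8, the other 4 vehicle mice lay in their midst, and the difference of 0.82 ± 0.48 had an exact permutation p of 0.0643. Without vehicle replicate 5, the unadjusted limma p of Ndufs7 was 0.0402, with an adjusted p of 0.924.

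Ndufb4 and Ndufa12 had the largest negative differences there. Ndufb4, an accessory subunit of the membrane arm (gene ID 68194, chromosome 16 from 37647602 to 37654368), was listed at 0 in vehicle replicate 8 and in BDE-47 replicates 1 and 2, was at 0.12 in BDE-47 replicate 4 and otherwise lay between 3.07 and 5.81. Its difference of -1.08 (95% interval -3.26 to 1.10) rests on those low values. Ndufa12 was at 4.01, 5.30 and 6.80 in the vehicle mice and at 2.76, 5.03 and 6.60 with BDE-47, a difference of -0.45 ± 0.61. Other core subunits differed by -0.40 (Ndufs1), -0.10 (Ndufs3), 0.71 (Ndufs8), -0.05 (Ndufv1) and -0.16 (Ndufv2), and Ndufb3 by -0.32, each with an interval that spans 0. Ndufa4, once assigned to complex I and now known to sit in complex IV, differed by -0.31.

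In complex IV, Cox5b and Cox7c had the largest negative and Cox7a2 and Cox7b the largest positive differences. Cox5b (gene ID 12859, chromosome 1 from 36691487 to 36693388) was at 4.03, 6.14 and 6.83 in the vehicle mice and at 0.25, 5.12 and 7.45 with BDE-47, a difference of -0.87 ± 0.71. Without BDE-47 replicate 4 the difference was -0.10. Cox7c was at 5.57, 7.00 and 7.52 in the vehicle mice and at 4.02, 6.46 and 8.04 with BDE-47, a difference of -0.51 ± 0.49 that was -0.12 without BDE-47 replicate 5. Cox7a2 differed by 0.40 ± 0.38 and Cox7b by 0.34 ± 0.44. Cox7b was 0.04 apart without vehicle replicate 2, at 5.09 the lowest of the 15. Cox8a and Cox6a1 differed by -0.24 and -0.26, and by 0.07 and 0.05 without BDE-47 replicate 6. Cox7a2l differed by -0.02 (95% interval -1.68 to 1.65). The left-out isoforms Cox6a2, Cox7a1 and Cox8b differed by 1.49, 0.08 and 0.25, with the value of BDE-47 replicate 6 in each.

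In complexes II and III no difference reached 0.40. Sdha, the flavoprotein that oxidises succinate (gene ID 66945, chromosome 13 from 74322255 to 74350240), was at 5.31, 7.09 and 8.16 in the vehicle mice and at 4.67, 6.92 and 7.89 with BDE-47, a difference of -0.31 ± 0.49. Sdhb, Sdhc and Sdhd differed by -0.04, 0.08 and -0.19. Sdhc was at 4.26 in vehicle replicate 8, the lowest of that group, and its difference was -0.25 without that mouse. The core proteins of complex III differed in opposite directions, Uqcrc1 by 0.38 ± 0.49 and Uqcrc2 by -0.30 ± 0.47, and both groups overlapped widely in each.

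**Figure D5:**
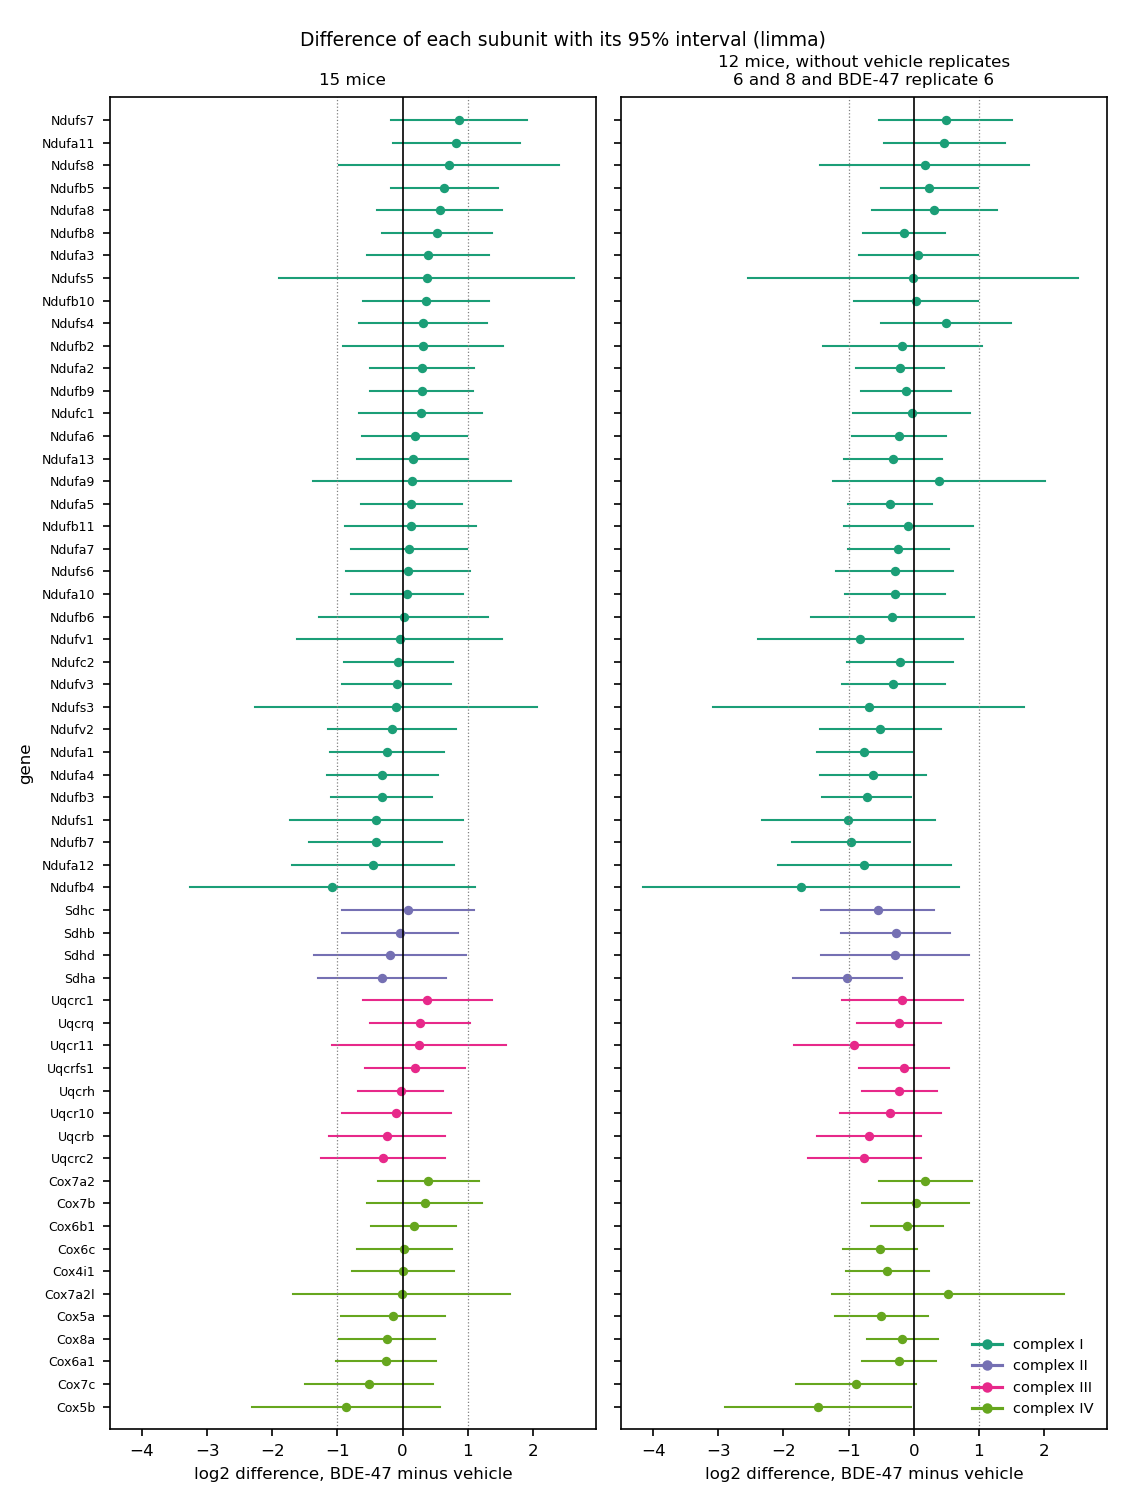
Log2 difference between BDE-47 and vehicle for the tested subunits reported by name (points, with 95% intervals from limma), coloured by complex, in all 15 mice (left) and in the 12 mice that remain without vehicle replicates 6 and 8 and BDE-47 replicate 6 (right); dotted lines mark 2-fold. On the left no interval excludes 0, and on the right most points lie below 0 and 5 intervals exclude it.

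Without the 3 mice that held markers of another tissue, most subunits were lower with BDE-47, and none passed the adjusted test. This comparison of 6 against 6 mice was chosen after seeing the data. It drops the lowest vehicle means of the 54 genes, in replicates 8 (5.975) and 6 (6.296), and the highest BDE-47 mean (7.83). Dropping these means lowers the average difference of the subunits by construction. Of the 59 genes, 47 had a log2 difference below 0 (79.7%, against 50% of all genes), with a median of -0.25 where all genes had 0.00. The count was 27 of 36 in complex I (median -0.24), 4 of 4 in complex II (-0.42), 8 of 8 in complex III (-0.29) and 8 of 11 in complex IV (-0.23). By limma, 0 of the 59 had an adjusted p under 0.05 (0.021% of all genes, 2 in number, had one), and the lowest adjusted p was 0.968. At an unadjusted p under 0.05, 5 were lower (8.47%, against 2.49% of all genes) and 0 were higher (2.19% of all genes). Past 2-fold, 4 were lower, Ndufb4, Cox5b, Sdha and Ndufs1 (14.4% of all genes), and 0 were higher (14.6% of all genes). Genes of 1 tissue vary together, so the 59 are not independent counts.

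The 5 genes were Sdha, Cox5b, Ndufb7, Ndufa1 and Ndufb3, the last 3 accessory subunits of complex I. Sdha differed by -1.02 (95% interval -1.85 to -0.19, unadjusted limma p 0.0172), Cox5b by -1.47 (-2.90 to -0.04), Ndufb7 by -0.96 (-1.86 to -0.06), Ndufa1 by -0.76 (-1.49 to -0.03) and Ndufb3 by -0.72 (-1.40 to -0.05), all with an adjusted p of 0.968 by limma. Per mouse, the mean of the 54 genes was 6.30 in vehicle replicate 2 and 6.85 to 7.33 in the other 5 vehicle mice kept, against 6.39 to 6.78 in the 6 BDE-47 mice. Among the mice kept, the groups overlapped through vehicle replicate 2 alone. The mice left out, at 5.97 and 6.30 with vehicle and 7.83 with BDE-47, widen that overlap. Over all 2577 genes detected in every mouse, the mean was 5.70 to 6.07 in the vehicle mice kept and 5.74 to 6.01 in the BDE-47 mice kept. The white adipocyte markers moved with the subunit means: their sum was 7854 CPM in vehicle replicate 2 and 14965 to 24430 CPM in the other 5 vehicle mice, against 6240 to 12412 CPM in the 6 BDE-47 mice. The sum of the 8 luminal epithelial markers was 617 to 1838 CPM in these vehicle mice and 1495 to 2944 CPM with BDE-47. The part of adipocyte or epithelial content in the subunit differences was not tested.

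The other genes of the pathway gave no call either. The mitochondrial DNA encodes 13 subunits, of which 6 (mt-Nd3, mt-Nd4l, mt-Co2, mt-Co3, mt-Atp6 and mt-Atp8) were listed at 0 in every mouse and 7 were tested. Of these 7, 6 had a difference above 0 (85.7%, against 49.1% of all genes), the largest being mt-Co1 at 0.49. The other, mt-Nd6, which lies alone on the other strand of that DNA, had -2.18 (unadjusted limma p 0.0477). It passed 1 CPM in 3 of 7 mice with BDE-47 and in 6 of 8 with vehicle. Over the 7 detected genes, vehicle replicates 6 and 8 had the lowest sums of the series, 14212 and 21905 CPM, and the other 13 mice had 30490 to 71459 CPM, so those libraries were low in both mitochondrial and nuclear transcripts of the chain. BDE-47 replicate 6, at 57010 CPM, lay inside the range of the other mice, unlike its nuclear subunits.

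Of the 20 genes named Atp5, the names of ATP synthase subunits, 15 were tested and their median difference was 0.08. Atp5s, a mitochondrial factor related to ATP synthase rather than a subunit of its core, reached 1 CPM in 6 of 7 mice with BDE-47 and in 1 of 8 with vehicle. It thus passed the filter of 7 mice only through the group in which it was higher, so its difference of 2.52 is given without a test. Atp5h had the largest negative one at -0.36. Of the 41 assembly factors, 32 were tested, with 2 higher (1.94% of all genes were) and 1 lower (2.71% of all genes) at an unadjusted p under 0.05. Surf1, which helps to build complex IV, differed by 2.47 (unadjusted limma p 0.0150) and passed 1 CPM in all 7 mice with BDE-47 and in 5 of 8 with vehicle. Uqcc3, needed to assemble complex III, was picked from the 41 after its values were seen. It was at 3.48, 5.19 and 5.78 in the vehicle mice and at 5.31, 6.43 and 6.89 with BDE-47. Its difference of 1.36 ± 0.52 had an unadjusted limma p of 0.0119 and an exact permutation p of 0.00140, neither of which allows for that choice. Foxred1, an assembly factor of complex I, differed by -2.14. All 3 had an adjusted limma p of 0.982. Of the 6 carriers and subunits with other names, all were tested and 0 had an unadjusted p under 0.05, the range running from -0.95 for cytochrome c (Cycs) to 0.79 for Ndufab1, the acyl carrier subunit of complex I. Of the 12 regulators of mitochondrial genes, 9 were tested and 0 had an unadjusted p under 0.05, from -1.09 for Nrf1 to 1.41 for Ppargc1b.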

How the data were processed

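RNA from mammary tissue of 8 vehicle and 7 BDE-47 mice was sequenced with QuantSeq 3′ FWD, 1 library per mouse. The authors mapped reads with STAR (2.5.3a per the labels, which name GRCm38), normalized them to CPM, and deposited values that are log2(CPM) with genes under 1 CPM at 0. Nothing states the log2 scale or the floor, which were inferred from the values. Depth was too, since 100% of low CPM values were whole multiples of 1 read (tolerance 0.02). This depth gives counting error only. Comparisons used the log2 values as deposited, and methods for counts were not used. Of 52636 entries, 110 with a repeated name were dropped.

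Groups followed the treatment label. Genes at 1 CPM or more in at least 7 mice were tested with limma 3.58.1 (trended prior variance, Benjamini-Hochberg adjustment) in R 4.3.3, and single genes also with a two-sided exact permutation test over 6435 assignments, whose smallest p is 0.000155. Python 3.11.15 with numpy 2.4.6, pandas 2.3.3 and matplotlib 3.10.9 did the rest. Both tests were tested on simulated data. The analysis of covariance with the xenograft as covariate was replaced because the labels do not give it. Members, marker lists and pathway lists were chosen with earlier results of these data known. Named genes are the largest differences, the highest levels, the catalytic subunits and isoform pairs of each complex, all genes always above or always at the floor, and the extremes of each pathway list. Ndufa9, Ndufs5 and Uqcc3 were named beyond that rule, after their values were seen. The values of 1 member are not reported here by name, although counts and medians include it. Promoters and coordinates came from RefSeq (GRCm38.p6). Alternatives were a pseudocount of 1 or 0.1, no filter or a filter on all 15 mice, median-of-ratios scaling, no trend, blocking on the replicate number, leaving out each mouse in turn, and the mice with B cell or muscle markers left out.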

Additional observations from a re-analysis of the deposited data

Results flagged for a closer look

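A screen for mice far from the rest of their group covered 38 genes and the means over the subunits. The 38 were the largest differences, the highest levels, the catalytic subunits and the isoforms. Other genes named here, such as Cox6a1 and Ndufa5, were not screened. The sets of Cox4i2 and Cox8c, at 0 throughout, were counted but could not be flagged. By group, 9 of 86 sets of mice held such a mouse, where chance flags about 1 in 20 of independent sets of normal values. The sets here share mice, and they include genes near the floor and Cox6a2, itself a muscle marker. Their count therefore cannot be set against that rate. BDE-47 replicate 6, the library with skeletal muscle transcripts, accounted for 4 of the 9, and its 10 muscle markers summed to 108909 CPM. It was high in the mean of complex I (7.83), in the mean of the 54 subunits (7.83) and in Cox6a2 (11.30), and low in Cox8a (6.18). Vehicle replicate 8, a library with B cell markers (775 CPM) and few adipocyte markers (992 CPM), was low in Sdhc (4.26) and was listed at 0 for Ndufb4.

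The other values stood in libraries without such markers. Cox5b was low in BDE-47 replicate 4, at 0.25. Cox6b2 was high in vehicle replicate 3, at 2.91, in a group whose other mice were at 0.55 or listed at 0. Ndufa4l2 was above the floor in BDE-47 replicate 3 alone of its group, at 2.33. Of the 15 libraries, BDE-47 replicate 4 had the fewest genes above the floor (6929) and BDE-47 replicate 3 the most (12682). The part of tissue content or of the number of genes detected in any of these values was not tested.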

How the results depend on the processing

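Under all 24 alternatives, 0 subunits had an adjusted limma p under 0.05, and every median over subunits moved by less than the SD between mice, although medians this near 0 changed sign. The median of all subunits, 0.08, ran from -0.08 (without vehicle replicate 8) to 0.16 when 1 mouse was left out. It was -0.07 without the 2 vehicle mice with B cell markers, and -0.25 without these and BDE-47 replicate 6, an alternative chosen after seeing the data. That last alternative, which drops the lowest vehicle means and the highest BDE-47 mean of the subunits, gave 5 subunits lower at an unadjusted p under 0.05. With median-of-ratios scaling, which moved the median of all genes to 0.06, the median of the subunits was 0.17 and that of complex IV 0.08, and with Ndufa4 and Ndufa4l2 counted there that of complex IV was -0.08.

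The count lower with BDE-47 by more than 2-fold, 1 subunit (Ndufb4), became 0 with log2(CPM + 1), with genes above 1 CPM in all mice and with median-of-ratios scaling, 2 without the vehicle mice with B cell markers, 4 without the 3 mice, and 0 to 2 when 1 mouse was left out. The count higher by more than 2-fold, 0, became 2 with log2(CPM + 0.1) and 0 to 1 when 1 mouse was left out (1 without vehicle replicates 1, 5 or 6 or BDE-47 replicate 1). Without vehicle replicate 5, 1 subunit (Ndufs7) was higher at an unadjusted p under 0.05, and the range over mice left out was 0 to 1. The cause was not tested for any of these.

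Among 12 single subunits, Sdhc was -0.32 without the vehicle mice with B cell markers and -0.55 without the 3 mice, and Uqcrc1 was -0.18 without the 3 mice. With 1 mouse left out, Sdha ran from -0.55 to 0.011 and Sdhc from -0.25 to 0.46. The other 9 kept their sign in every alternative.

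The replicate number, used as a block over mice 1 to 7, gave 2 subunits lower past 2-fold, a median of -0.08 and Sdhc at -0.25. This fit also drops vehicle replicate 8, and leaving that mouse out without a block gave the same values. Deviations of mice with the same number correlated weakly, at r = -0.02 to 0.05. Of the BDE-47 mice, 4 of 7 correlated best with the vehicle mouse of their own number. Whether the number pairs the mice was not tested. The SD between mice was 0.36 to 1.80 against a counting SD of 0.02 to 0.07, which leaves out library complexity, not measured here.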
